A study of Piaractus mesopotamicus with 9 samples.

Results

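The serine synthesis and folate one-carbon enzymes are described here in cultured myotubes of pacu (Piaractus mesopotamicus), a South American freshwater fish. They are the 9 genes phgdh, psat1, psph, shmt1, shmt2, mthfd2, mthfd1l, mthfd1b and aldh1l2, chosen by name from the 19365 gene names in the annotation of the assembled transcripts. Messenger RNA was sequenced in 9 libraries, 3 each of the AA, IGF1 and CTR groups. Cells came from the fast-twitch epaxial muscle of juvenile pacu, with 20 fish pooled in each culture, and on day 8 of culture every group was placed in a medium without amino acids (Earle's salts, vitamins and glucose) for 12 h. AA cells then spent 24 h in DMEM, which holds amino acids, serine and glycine among them, and differs from the restriction medium in other components too. IGF1 cells spent 24 h in the restriction medium, to which gilthead sea bream IGF1 had been added to 100 ng/mL. CTR cells remained without amino acids until harvest at 36 h, so IGF1 and CTR share the lack of amino acids and AA and CTR share the lack of added IGF1. The protocols give 24 h for both treatments, while 1 field of the labels gives 12 h. The study used 3 independent cultures, and its figures give 3 independent cultures for each group, so the groups would share cultures. Whether libraries of the same number share one is not stated. The libraries were tested as independent, and p-values weigh group differences against the spread between these libraries.

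Cells make serine from the glycolytic intermediate phosphoglycerate. Phgdh oxidizes it in the committed step, Psat1 adds an amino group taken from glutamate, and Psph removes the phosphate. Serine hydroxymethyltransferases then move a carbon unit of serine to tetrahydrofolate and leave glycine, Shmt2 in mitochondria and Shmt1 in the cytosol. In mitochondria Mthfd2 oxidizes the folate-bound unit and Mthfd1l releases it as formate, while Aldh1l2 can oxidize it to carbon dioxide with formation of NADPH. The cytosolic trifunctional enzyme, Mthfd1, takes formate up again for purines, thymidylate and methionine. In mammalian cells several of these genes are known targets of the transcription factor Atf4, through the amino acid response and through mTORC1.

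The values are counts per contig, an assembled transcript. Each gene is given by its leading contig, the contig of that name with the highest mean raw count, and its values are the authors' normalized counts, which are raw counts divided by 1 size factor per library. For contigs under a mean of 10 raw counts, as in some marker sums, the raw counts were divided by the same factors. They carry no correction for transcript length, so levels are compared between groups and not between genes. A gene is said to have risen or fallen at an adjusted p of 0.05 or less in edgeR's quasi-likelihood test over all 35575 contigs with a mean raw count of at least 10. Fold-changes are on the log2 scale with a 95% interval from the same fit. The 3 comparisons share libraries, so each one's values are its own description. All 9 genes passed the count filter.

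Total counts were 1366043 to 14297795 per library in AA, 4099124 to 53525876 in IGF1 and 13394809 to 30928843 in CTR, and AA replicate 3 was the shallowest, with 15.1% of the tested contigs at 0 against at most 4.33% in the others. In the cultures, 15 of 26 listed skeletal muscle markers were tested, and desmb, mylpfb, actc1b, tnni2a.1, myl1 and atp2a1 lay under a mean of 10 counts. The 21 names found summed to normalized counts of 6553 to 10208 in AA, 3771 to 3986 in IGF1 and 3738 to 4133 in CTR. Most of each sum came from actc1a, at 4277 to 6299 in AA, 2202 to 2516 in IGF1 and 2778 to 3336 in CTR. Actc1a was lower in every IGF1 library than in every CTR library, while myog, ttn.1 and ttn.2 were higher. The near-equal sums of IGF1 and CTR thus cover differing directions. The sum of the fibroblast markers, mostly from col1a1a, col1a1b and col1a2, was 208879 to 235286 in AA, 286445 to 310866 in IGF1 and 211652 to 226809 in CTR. That of markers of cycling cells was 968 to 1130 in AA, 444 to 583 in IGF1 and 262 to 329 in CTR. Of the markers tested, 12 of 15 muscle and 11 of 11 cycling genes rose in AA, while 8 of 15 fibroblast genes, 3 muscle genes and 2 cycling genes rose in IGF1. Of the fibroblast genes 3 rose and 2 fell in AA over CTR, and 2 were higher and 6 lower in AA than in IGF1. Of 11 listed leukocyte markers 3 were found by name, none of them tested, and they summed to at most 6.19 normalized counts in any library. Most of the listed names were missing from the annotation, so this sum cannot show whether leukocytes were present. For adipocytes, 2 of 7 listed names were found, summing to 86.8 to 212 in AA, 88.9 to 165 in IGF1 and 67.9 to 74.3 in CTR. For glia, 3 of 7 were found, at 0 to 25.7 in AA, 5.70 to 19.6 in IGF1 and 26.3 to 46.0 in CTR. For endothelium, 7 of 10 were found, at 218 to 442 in AA, 331 to 398 in IGF1 and 319 to 333 in CTR. The part of these shifts in the results below was not tested, and in bulk RNA a change in the number of cells of a type and a change in RNA per cell cannot be told apart.

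In IGF1 relative to CTR, 5 of the 9 genes rose, namely phgdh, psph, shmt2, mthfd2 and mthfd1l. Over the leading contigs of all 13162 tested names, 3.11% rose in IGF1. For 8 of the 9 genes, all but aldh1l2, the 3 IGF1 libraries lay above the 3 CTR libraries, against 16.3% of all names. The median log2 fold-change of the 9 genes was 1.18, against 0.05 over all names. With a minimum of 2-fold added, 4 genes remained, without mthfd2, against 1.3% of all names. In AA relative to CTR, 2 genes rose, psph and shmt1, both by over 2-fold, where 6.56% of all names rose and 4.03% rose by at least 2-fold. The AA libraries lay above the CTR libraries for psph, shmt2 and shmt1, against 16.4% of all names, and the median of the 9 genes was 0.27, against 0.03. Between the treatments, phgdh, shmt2, mthfd2 and mthfd1l were lower in AA than in IGF1, where 4.8% of all names were lower, and in these 4 the groups did not overlap, against 14.6% of all names. The median of the 9 genes was −0.62 there, against −0.02 over all names, and at the 2-fold minimum phgdh and mthfd1l remained, against 2.05% of all names.

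**Figure D1:**
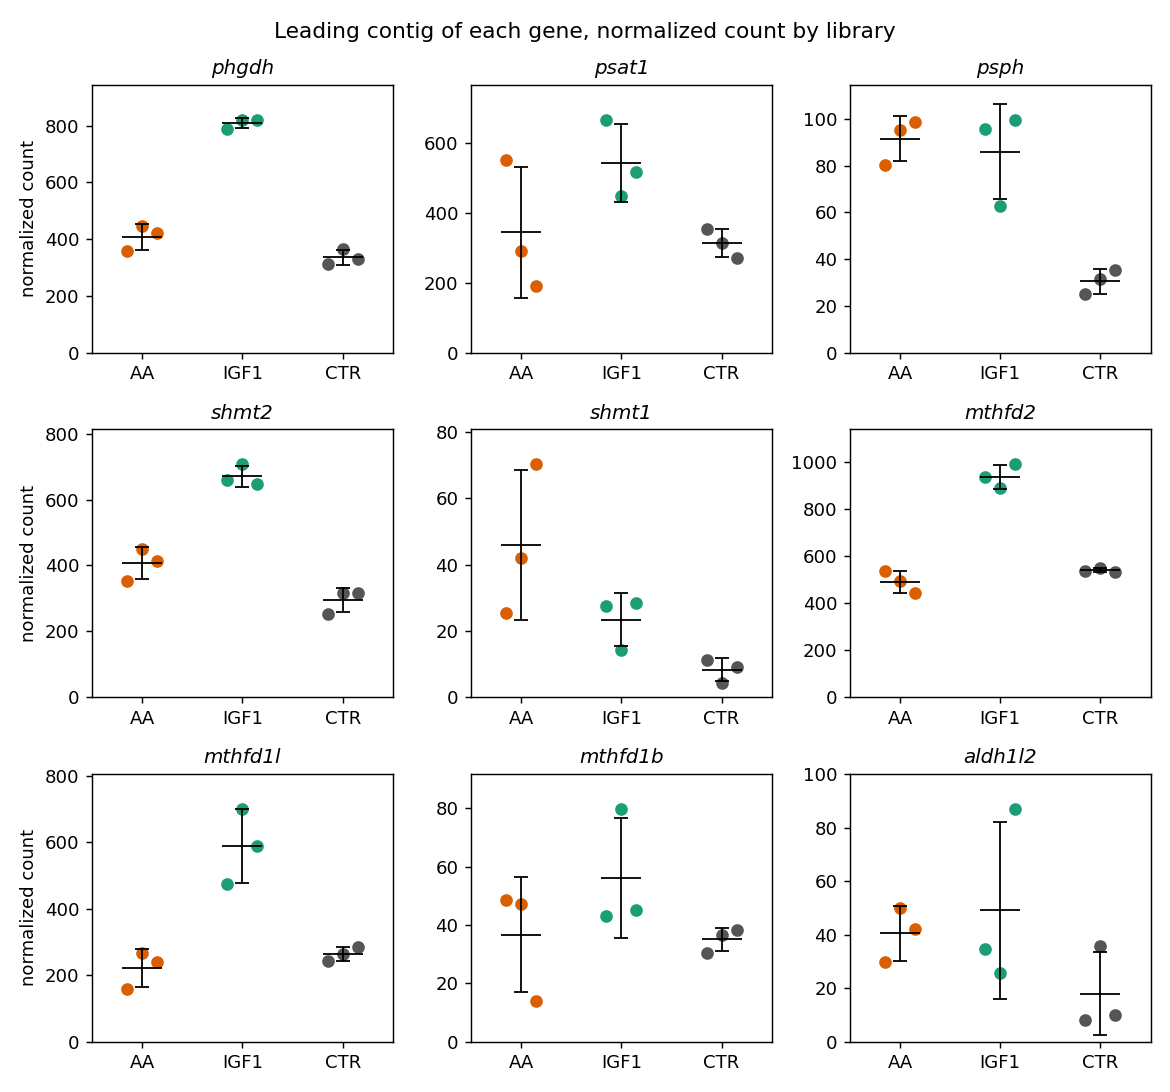
Normalized count of the leading contig of each gene in the 9 libraries, with AA, IGF1 and CTR from left to right, 1 point per library (replicates 1 to 3 from left to right) and a bar at the group mean; every axis starts at 0 and has its own scale. For phgdh, shmt2, mthfd2 and mthfd1l the 3 IGF1 points sit above all AA and CTR points, while for psph the AA and IGF1 points overlap above CTR.

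Phgdh had normalized counts of 358, 445 and 422 in AA, 790.1, 821 and 821 in IGF1 and 313, 364 and 331 in CTR. The IGF1 libraries lay close together and well above both other groups, and AA and CTR overlapped. The gene rose 2.41-fold in IGF1 over CTR, with a log2 fold-change of 1.27 (SE 0.14, interval 0.98 to 1.56, adjusted p = 1.48e-05). The log2 fold-change of AA over CTR was 0.27 with an interval of −0.03 to 0.57 (adjusted p = 0.264), and in AA over IGF1 it was −1.00 (interval −1.30 to −0.70, adjusted p = 0.000156). The order was therefore IGF1, AA, CTR, and AA and CTR did not differ beyond their spread.

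Psat1, the transaminase of the middle step, had 552, 291 and 189.8 in AA, 667, 447 and 519 in IGF1 and 354, 315 and 272 in CTR. The AA libraries ranged more widely than those of either other group, and AA replicate 1 lay above 2 of the 3 IGF1 libraries. Replicate 1 was the highest library in each of the groups. The log2 fold-change of IGF1 over CTR was 0.81 (interval 0.30 to 1.32, adjusted p = 0.0556), which missed the threshold although the groups did not overlap. It passed without AA replicate 1 (0.81, adjusted p = 0.00988) and without AA replicate 3 (0.81, adjusted p = 0.0195). These 2 libraries are in neither group compared. They enter through the shared estimate of the spread, the count filter, the scaling and the adjustment of p. Relative to CTR, AA was at 0.19 (interval −0.34 to 0.72, adjusted p = 0.707) and turned to −0.29 without AA replicate 1. In AA over IGF1 it was −0.62 (interval −1.15 to −0.09, adjusted p = 0.152) and passed at −1.10 without AA replicate 1 (adjusted p = 0.00568). With the replicate number as a further term of the fit, psat1 passed in both IGF1 over CTR and AA over IGF1. In IGF1 over CTR it passed in 7 of the 12 alternatives other than leaving out 1 library, DESeq2 among them.

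Psph, the phosphatase of the last step, had 80.4, 95.4 and 98.4 in AA, 95.7, 62.7 and 99.5 in IGF1 and 24.9, 31.4 and 35.4 in CTR. Every treated library lay above every CTR library, and AA and IGF1 overlapped. It rose 2.91-fold in AA over CTR (log2 fold-change 1.54, SE 0.30, interval 0.92 to 2.17, adjusted p = 0.00192) and 2.88-fold in IGF1 over CTR (1.52, SE 0.28, interval 0.93 to 2.11, adjusted p = 0.00189). The log2 fold-change of AA over IGF1 was 0.02 with an interval of −0.58 to 0.62 (adjusted p = 0.982). The counts behind these values were low in AA, with 38, 141 and 14 raw counts, and with all libraries thinned to the depth of the shallowest neither rise passed, at a log2 fold-change of 1.43 in AA (adjusted p = 0.0900) and 1.45 in IGF1 (adjusted p = 0.182).

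Shmt2, the mitochondrial serine hydroxymethyltransferase, had 353, 449.7 and 415 in AA, 658, 707 and 647 in IGF1 and 252, 315 and 316 in CTR. The 3 groups did not overlap, in the order IGF1, AA, CTR. It rose 2.27-fold in IGF1 over CTR (log2 fold-change 1.18, SE 0.15, interval 0.87 to 1.49, adjusted p = 6.63e-05) and was lower in AA than in IGF1 (−0.73, interval −1.05 to −0.40, adjusted p = 0.00516). For AA over CTR it was 0.45 (interval 0.13 to 0.78, adjusted p = 0.0654), on the far side of the threshold. Without AA replicate 1 it was 0.55 and passed (adjusted p = 0.0420), as it also did with DESeq2 at 0.47 (adjusted p = 0.0402).

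Shmt1, the cytosolic enzyme, had 25.4, 41.9 and 70.3 in AA, 27.6, 14.2 and 28.4 in IGF1 and 11.2, 4.38 and 9.19 in CTR. Both treated groups lay above CTR in every library, and they overlapped each other. It rose 4.95-fold in AA over CTR (log2 fold-change 2.31, SE 0.52, interval 1.23 to 3.39, adjusted p = 0.00590). For IGF1 over CTR it was 1.58 (interval 0.56 to 2.61, adjusted p = 0.0652), and it passed without AA replicate 3 (1.59, adjusted p = 0.0396) and without IGF1 replicate 2 (1.75, adjusted p = 0.0496). It passed there in 4 of the 12 alternatives other than leaving out 1 library, DESeq2 among them. In AA over IGF1 it was 0.73 (interval −0.29 to 1.75, adjusted p = 0.437). These levels rest on few raw counts, namely 12, 62 and 10 in AA, 39, 5 and 142 in IGF1 and 14, 6 and 26 in CTR, and with all libraries thinned to the shallowest the log2 fold-change in AA was 2.39 and did not pass (adjusted p = 0.102).

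Mthfd2, the mitochondrial dehydrogenase and cyclohydrolase, had 535, 496 and 443 in AA, 938, 889 and 991 in IGF1 and 538, 551 and 534 in CTR. IGF1 stood apart and AA and CTR overlapped. It rose 1.74-fold in IGF1 over CTR (log2 fold-change 0.80, SE 0.13, interval 0.53 to 1.07, adjusted p = 0.000597) and was lower in AA than in IGF1 (−0.94, interval −1.22 to −0.65, adjusted p = 0.000160). The log2 fold-change of AA over CTR was −0.14 with an interval of −0.42 to 0.15 (adjusted p = 0.591), so a change of 2-fold in either direction lay outside that interval.

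Mthfd1l, the mitochondrial formate-releasing synthetase, had 159, 268 and 239 in AA, 476, 701 and 589.9 in IGF1 and 244, 264 and 284 in CTR. As for mthfd2, the IGF1 libraries stood above all others while AA and CTR overlapped. It rose 2.21-fold in IGF1 over CTR (log2 fold-change 1.14, SE 0.18, interval 0.76 to 1.53, adjusted p = 0.000555) and was lower in AA than in IGF1 (−1.39, interval −1.81 to −0.98, adjusted p = 0.000133), the lowest of the 9 log2 fold-changes in that comparison. Relative to CTR, AA was at −0.25 (interval −0.67 to 0.16, adjusted p = 0.478).

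Aldh1l2, the mitochondrial formyl-tetrahydrofolate dehydrogenase, had 29.6, 50.0 and 42.2 in AA, 34.7, 25.6 and 87.1 in IGF1 and 8.03, 35.8 and 9.90 in CTR. CTR replicate 2 lay among the treated libraries, apart from the other CTR libraries, and the groups overlapped. The log2 fold-change was 1.24 in AA over CTR (interval 0.06 to 2.42, adjusted p = 0.175) and 1.61 in IGF1 over CTR (interval 0.52 to 2.70, adjusted p = 0.0788). Without CTR replicate 2 both passed, at 2.17 in AA (adjusted p = 0.0264) and 2.53 in IGF1 (adjusted p = 0.0114). In AA over IGF1 the value was −0.37 (interval −1.49 to 0.75, adjusted p = 0.771) and turned to 0.41 without IGF1 replicate 3.

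Mthfd1b, named for the cytosolic trifunctional enzyme, had 48.7, 47.3 and 14.1 in AA, 43.2, 79.8 and 45.0 in IGF1 and 30.5, 36.5 and 38.2 in CTR. The value of 14.1 in AA replicate 3 stands for 2 raw counts. The IGF1 libraries lay above the CTR libraries and the AA libraries spanned CTR on both sides. The log2 fold-change was 0.25 in AA over CTR (interval −0.56 to 1.05, adjusted p = 0.749), 0.58 in IGF1 over CTR (interval −0.17 to 1.34, adjusted p = 0.454) and −0.33 in AA over IGF1 (interval −1.15 to 0.48, adjusted p = 0.702), and these intervals reach past a 2-fold change on 1 side. Mthfd1a, named for the same enzyme, had means of 42.5 in AA, 59.4 in IGF1 and 35.3 in CTR. Its log2 fold-change in IGF1 over CTR was 0.71 (interval −0.01 to 1.43, adjusted p = 0.298).

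**Figure D2:**
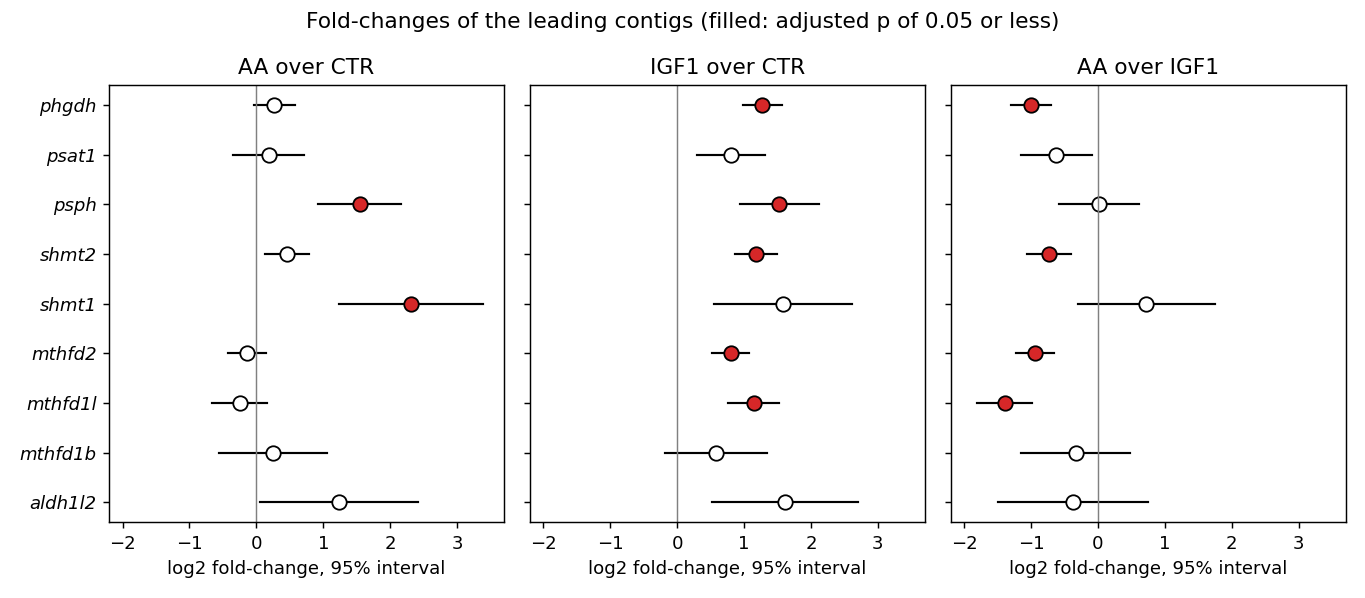
Log2 fold-change of the leading contig of each gene (points) with its 95% interval (lines) in AA over CTR, IGF1 over CTR and AA over IGF1; filled points have an adjusted p of 0.05 or less. In IGF1 over CTR all 9 points lie to the right of 0, between 0.58 and 1.61, where 54.8% of all tested names lie above 0. There 5 are filled, while in AA over CTR psph at 1.54 and shmt1 at 2.31 are filled.

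Several contigs carry the name of each gene, 42 in all, of which 25 were tested. Contigs of 1 assembly locus share sequence, so their counts may share reads and are not separate measurements. Phgdh and mthfd1l had 1 tested contig each, which held 99.9% of the raw counts of the name. Of the 25 contigs, 9 rose in IGF1 over CTR, where 2.5% of all tested contigs rose. All 25 had a log2 fold-change above 0 there, as did 54.8% of the leading contigs of all tested names. In AA over CTR 3 contigs rose, where 5.29% of all contigs did, and in AA over IGF1 6 were lower, where 4.51% were. All 3 contigs of psph rose in IGF1 and 2 of them in AA, and the third had a log2 fold-change of 1.43 in AA over CTR (adjusted p = 0.0690). For mthfd2, 3 of 4 contigs rose in IGF1 over CTR and were lower in AA than in IGF1. The 5 tested contigs of psat1 had log2 fold-changes of 0.51 to 0.86 in IGF1 over CTR, and its leading contig held 26.4% of the counts of the name.

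The names shmt1 and shmt2 were not cleanly separated in the assembly. The locus DN21390 holds 3 tested contigs, 2 named shmt1 and 1 named shmt2, with log2 fold-changes of −0.89 to −0.62 in AA over CTR and 0.32 to 0.65 in IGF1 over CTR, none past the test. The most abundant of them, named shmt1, had 0, 27 and 0 raw counts in AA, 16, 3 and 159 in IGF1 and 11, 27 and 50 in CTR. They thus lay on the other side of 0 from the leading contig of shmt1 in AA over CTR, which belongs to another locus and holds 41.1% of the counts of its name. With counts summed over all contigs of a name, the log2 fold-change of shmt1 in AA over CTR was 0.69 and did not pass (adjusted p = 0.370). The rise of shmt1 in AA is therefore a statement about its leading contig. The leading contig of shmt2 held 96.4% of the counts of its name.

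**Figure D3:**
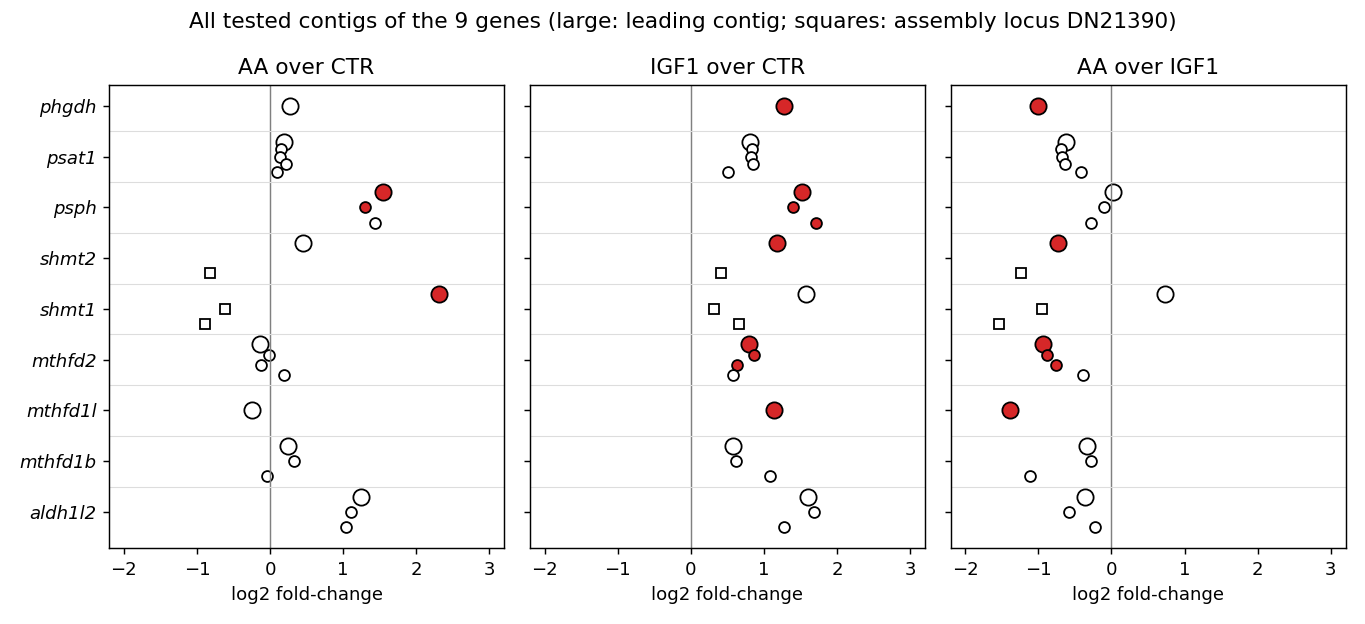
Log2 fold-change of each of the 25 tested contigs by gene name in the 3 comparisons, with the leading contig large, red for an adjusted p of 0.05 or less, and squares for the 3 contigs of the locus DN21390 that carry the names shmt1 and shmt2. Contigs of psat1, psph and mthfd2 lie close to their leading contig in IGF1 over CTR, whereas in AA over CTR the squares lie at −0.89 to −0.62 and the leading contig of shmt1 at 2.31.

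Genes around these enzymes were counted in 4 lists, each on the leading contig. Across all names, 6.57% fell in AA and 3.31% in IGF1 relative to CTR, and 4.23% were higher in AA than in IGF1, beside the shares of rises given above. In the list of serine and glycine handling (transport, glycine cleavage, serine lipids and the glycolytic supply), 28 of 38 genes were tested. Of these, 4 rose and 2 fell in IGF1 over CTR, 4 fell in AA over CTR, and in AA over IGF1 5 were lower and 1 was higher. Leaving out a library lowered these counts, to 3 of 6 in IGF1 over CTR without any 1 CTR library and 2 without IGF1 replicate 3, to 2 of 4 in AA over CTR without CTR replicate 2 or CTR replicate 3, and to 3 of 6 in AA over IGF1 without AA replicate 2. With the library size alone as scaling, 2 fell and 1 rose in AA over CTR, and 4 were lower and 2 higher in AA than in IGF1. The medians were 0.07 in IGF1 over CTR, −0.10 in AA over CTR and −0.15 in AA over IGF1, against 0.05, 0.03 and −0.02 over all names.

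Slc1a4, a transporter of serine and other small neutral amino acids, had mean normalized counts of 269.7 ± 71.0 in AA, 566 ± 66.9 in IGF1 and 204 ± 26.7 in CTR (SD, n = 3 each). It rose in IGF1 over CTR by 1.47 on the log2 scale (adjusted p = 5.91e-05) and was lower in AA than in IGF1 by −1.00 (adjusted p = 0.00205). Pgk1, the glycolytic enzyme that yields phosphoglycerate, rose in IGF1 over CTR (0.61, adjusted p = 0.0150, but not without CTR replicate 1 or IGF1 replicate 3) and was lower in AA than in IGF1 (−0.84, adjusted p = 0.00149). Slc38a2, an amino acid transporter that mammalian cells induce when starved of amino acids, fell in AA over CTR (−0.57, adjusted p = 0.0109) and was lower in AA than in IGF1 (−0.87, adjusted p = 0.000465). The fall against CTR did not pass without CTR replicate 2 or CTR replicate 3, nor with the library size alone as scaling.

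Serinc1 and serinc2, named for incorporation of serine into membrane lipids, fell in AA over CTR, with log2 fold-changes of −0.61 (adjusted p = 0.00323) and −0.71 (adjusted p = 0.00404). Serinc2 was also lower in AA than in IGF1 (−0.61, adjusted p = 0.0146), which did not hold without AA replicate 2 or IGF1 replicate 2. Serinc1 fell in IGF1 over CTR as well (−0.51, adjusted p = 0.0149), which did not hold without CTR replicate 2, CTR replicate 3, IGF1 replicate 2 or IGF1 replicate 3. Sfxn3, of the family of mitochondrial serine carriers, fell in IGF1 over CTR (−0.91, adjusted p = 0.000728) and in AA over CTR (−0.53, adjusted p = 0.0310), the value in AA being lost without any 1 of 5 libraries: CTR replicate 2, CTR replicate 3, AA replicate 2, AA replicate 3 or IGF1 replicate 3. Sfxn1 of the same family, named after its values were seen, rose in IGF1 over CTR (1.57, adjusted p = 0.0389), which held in 4 of 9 fits leaving out a library and not without any CTR library, IGF1 replicate 1 or IGF1 replicate 3.

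Of the other folate enzymes and carriers, 18 of 25 were tested. Slc25a32a alone passed in IGF1 over CTR, where it fell, in AA over CTR 1 rose and 2 fell, and in AA over IGF1 1 was lower, with medians of 0.34 in IGF1 over CTR, 0.07 in AA over CTR and −0.23 in AA over IGF1. Slc25a32a, named, like slc25a32b, for the mitochondrial folate carrier, had 255 ± 111 in AA, 184 ± 25.6 in IGF1 and 409 ± 26.1 in CTR (SD, n = 3 each). Slc25a32a fell in IGF1 over CTR, at −1.18 on the log2 scale (adjusted p = 0.00173), opposite in direction to shmt2, mthfd2 and mthfd1l. Slc25a32b lay on the other side of 0, at 0.71 (interval −0.04 to 1.47, adjusted p = 0.318), and did not pass. In AA over CTR, tyms, thymidylate synthase, rose by 1.78 (adjusted p = 0.0174). Tyms is itself 1 of the listed markers of cycling cells, which were higher in AA, as given above. Mthfs fell by 1.46 (adjusted p = 0.0326) and atic, of purine synthesis, by 0.65 (adjusted p = 0.0385). In AA over IGF1, fpgs, which adds glutamates to folates, was lower at −0.74 (adjusted p = 0.0431). These 4 calls were not stable to leaving out a library. Tyms was lost without CTR replicate 2, CTR replicate 3 or AA replicate 1, mthfs without any CTR library or AA replicate 1, atic in all but the fits without IGF1 replicate 1 or 2, and fpgs in all but the fits without CTR replicate 1 or AA replicate 1.

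In the methionine cycle and transsulfuration, 17 of 21 genes were tested. There 5 rose in IGF1 over CTR, in AA over CTR 3 rose and 2 fell, and in AA over IGF1 2 were higher and 5 lower, with medians of 0.36 in IGF1 over CTR, 0.05 in AA over CTR and −0.06 in AA over IGF1. The 5 rises in IGF1 became 2 without any 1 CTR library or without IGF1 replicate 3, and 3 without IGF1 replicate 1 or IGF1 replicate 2. Mat2ab, a methionine adenosyltransferase, had 1097 ± 142 in AA, 2169 ± 431 in IGF1 and 810.4 ± 19.7 in CTR (SD, n = 3 each). It rose in IGF1 over CTR by 1.41 on the log2 scale (adjusted p = 7.14e-06) and was lower in AA than in IGF1 (−1.00, adjusted p = 0.000160). Bhmt, which remethylates homocysteine with betaine, rose in IGF1 over CTR (1.08, adjusted p = 0.000115) and was lower in AA than in IGF1 (−1.49, adjusted p = 4.00e-06). Mat1a rose in IGF1 over CTR (1.93, adjusted p = 0.0392), but that call was lost without any 1 of the CTR or IGF1 libraries.

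Cystathionine beta-synthase draws homocysteine and serine into cysteine synthesis, and its 2 names, cbsa and cbsb, lie on contigs of 1 assembly locus that may share reads. Cbsa had 391 ± 23.7 in AA, 857 ± 62.0 in IGF1 and 849 ± 56.4 in CTR (SD, n = 3 each). It fell in AA over CTR (−1.12, adjusted p = 2.11e-05), as did cbsb (−0.87, adjusted p = 0.000501), and both were lower in AA than in IGF1, by −1.13 and −0.79 on the log2 scale (adjusted p = 2.41e-05 and 0.00143). With counts summed per gene name, cbsb did not pass in AA over IGF1 (adjusted p = 0.0689). Gnmt, which methylates glycine, rose in AA over CTR by 1.32 (adjusted p = 5.42e-05), and mtap, of methionine salvage, by 1.36 (adjusted p = 0.000512). Gnmt rose in IGF1 over CTR as well (0.64, adjusted p = 0.0286), a call lost without any CTR library, IGF1 replicate 2 or IGF1 replicate 3.

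The list of the Atf4 arm of the amino acid response held 27 genes, of which 24 were tested. In AA over CTR 8 fell and 3 rose, and 9 were lower in AA than in IGF1, while in IGF1 over CTR 5 rose and 2 fell. The medians were −0.42 in AA over CTR, 0.20 in IGF1 over CTR and −0.48 in AA over IGF1. With the library size alone as scaling, 2 were lower and 2 higher in AA than in IGF1. The 9 lower genes in AA than in IGF1 became 5 without AA replicate 2, 4 without IGF1 replicate 2 and 3 without IGF1 replicate 3, and 2 passed without AA replicate 3 and IGF1 replicate 2 together. The total over all contigs also fell in some fits leaving out a library, as given at the end. Losses in this list and in the other lists thus need not be particular to them. Without CTR replicate 3, 7 genes passed in AA over CTR, 6 of them lower, and 4 in IGF1 over CTR. Atf4a, which encodes the transcription factor, had 2334 ± 36.7 in AA, 3175 ± 142 in IGF1 and 4009 ± 293 in CTR (SD, n = 3 each). It fell in AA over CTR (−0.80, adjusted p = 6.51e-05) and was lower in AA than in IGF1 (−0.46, adjusted p = 0.00993, not without IGF1 replicate 3). In IGF1 over CTR its log2 fold-change was −0.34 (interval −0.56 to −0.11, adjusted p = 0.0705). By group means atf4a messenger RNA was ordered CTR, IGF1, AA, and IGF1 and CTR were not separated by the test. Of the 9 genes, psph and shmt1 had their highest means in AA and rose in AA over CTR. The others, phgdh and shmt2 among them, had their highest means in IGF1. For none of these others did AA and CTR differ past the test. Atf4 protein was not measured, and a link between Atf4 and these genes was not tested.

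Other genes of the list moved in differing directions in IGF1. Chac1, a glutathione-degrading enzyme induced by Atf4 in mammals, had 608 ± 171 in AA, 1863 ± 166 in IGF1 and 863 ± 7.93 in CTR (SD, n = 3 each). It rose in IGF1 over CTR (1.11, adjusted p = 0.000198) and was lower in AA than in IGF1 (−1.57, adjusted p = 5.69e-06). Pck2, the mitochondrial phosphoenolpyruvate carboxykinase, also rose in IGF1 (0.76, adjusted p = 0.00547). The stress-induced transcriptional regulators nupr1b and nupr1a fell in IGF1 over CTR (−0.88, adjusted p = 6.00e-05 and −0.79, adjusted p = 0.000848). In AA over CTR, nupr1b (−1.04, adjusted p = 5.42e-06), trib3 (−0.84, adjusted p = 0.000337) and the amino acid transporter subunit slc3a2b (−0.69, adjusted p = 0.00118) fell. The 3 that rose there were slc7a11 (1.43, adjusted p = 0.00601), vldlr (1.35, adjusted p = 0.0477) and atf5b (0.59, adjusted p = 0.0398). Slc7a11 held in all 9 fits leaving out a library, vldlr in 3 and atf5b in 4. Slc3a2a was lower in AA than in IGF1 (−2.00, adjusted p = 0.00190), and so was ddit3 (−0.53, adjusted p = 0.0133), a call lost without AA replicate 2 or IGF1 replicate 3.

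**Figure D4:**
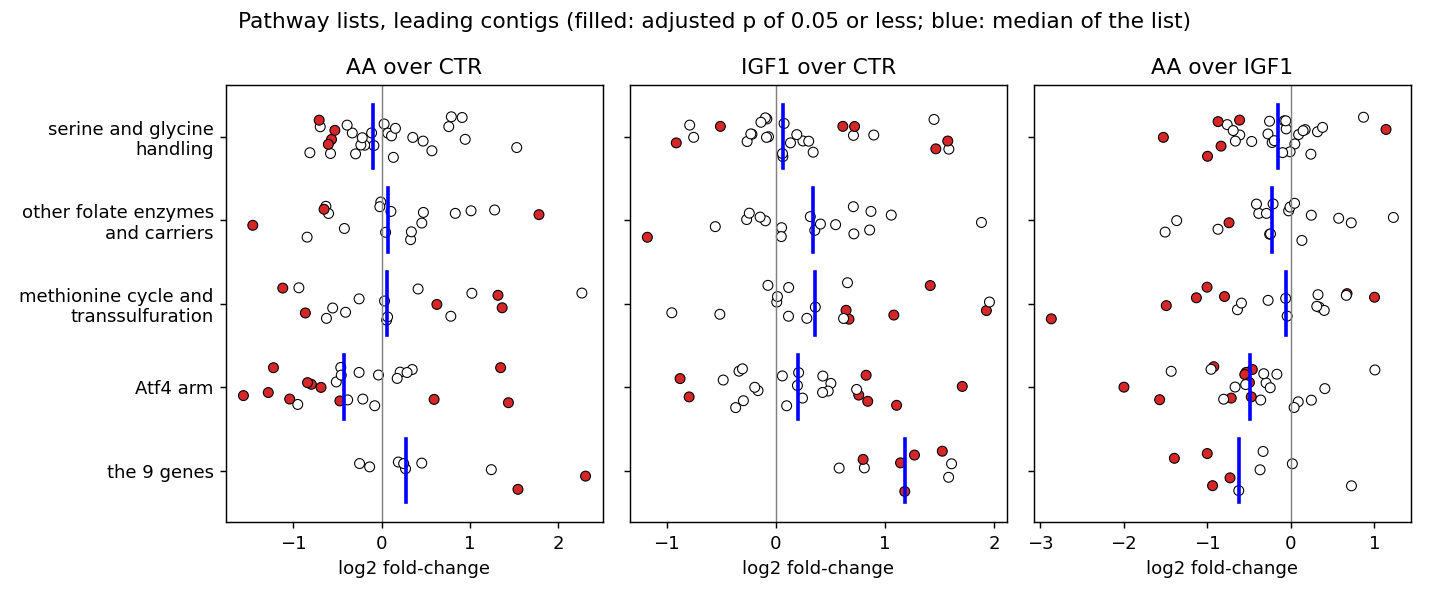
Log2 fold-change of every tested gene of the 4 surrounding lists and of the 9 genes (points, leading contigs) in the 3 comparisons, red for an adjusted p of 0.05 or less, with a blue bar at the median of each list. In IGF1 over CTR the median of the 9 genes is 1.18 and those of the other lists are 0.07 to 0.36, and in AA over CTR the median of the Atf4 arm is −0.42.

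The profiles over the 9 libraries were also compared with those of 5061 gene names with a mean raw count of at least 100 on their leading contig. Only names in the form of a gene symbol were kept, so names with spaces and clone, locus or database identifiers were left out. The measure was the root mean square difference of log2(normalized count + 1), each profile centred on its own mean. The libraries fall into 3 groups, so likeness of this kind mainly follows the group means. The profile most like phgdh was that of shmt2, with a difference of 0.130 on the log2 scale. It was followed by serpinh1b, the collagen chaperone, at 0.135, mat2ab at 0.156, akirin-2-like at 0.156 and the valyl-tRNA synthetase gene vars at 0.159. Among the other members, mthfd2 ranked 29 and mthfd1l 58 of 5061 in likeness to phgdh. Psat1 and psph, the other enzymes of serine synthesis, ranked 1061 and 2272, mthfd1b 2320, aldh1l2 4128 and shmt1 4827, the last 3 on mean raw counts under 100. The profiles most like mthfd2 were those of nars at 0.0924 and gars at 0.0971, the asparaginyl- and glycyl-tRNA synthetase genes, with smfn at 0.0925, arhgef1b at 0.105 and tmem62 at 0.109. In likeness to mthfd2, phgdh ranked 117, shmt2 310, psat1 586 and mthfd1l 620 of 5061. Mthfd1b ranked 2369, psph 4355, aldh1l2 4808 and shmt1 4972.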

How the data were processed

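By the labels and the study's methods, poly(A) RNA of 9 libraries was sequenced, reads were checked with FastQC 0.11.8, trimmed and assembled with Trinity, contigs were named by BLASTx, and reads were mapped with Bowtie2. The counter and its use of strand are not given in the sources used here, so reads shared between contigs or with an antisense transcript may be split. The authors deposited raw counts per contig (69932 contigs) and, as a signal, the same counts divided by 1 size factor per library, limited to the 35575 contigs that averaged at least 10 raw counts. The factors recovered from that table were applied to the raw counts of the other contigs.

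Raw counts were tested in R 4.3.3 with edgeR 4.0.16 (TMM, quasi-likelihood F test in its earlier form, all 9 libraries, group as the only term), with Benjamini-Hochberg adjustment over 35575 contigs. Totals of 1366043 to 53525876 counts limit low contigs most in AA replicate 3. The code was checked on simulated data. Named were the 9 genes, up to 4 genes past the test with the smallest p per list and comparison, and the 5 names most like phgdh and mthfd2. Other genes, among them sfxn1, slc25a32b, mthfd1a, slc7a11, vldlr and atf5b, were named after their values were seen. The genes and lists were chosen with earlier results of these data known. The intervals cover the spread between these libraries.

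Alternatives were DESeq2 1.42.0, median-of-ratios or library-size scaling, other filters, only the 2 groups compared, a replicate block, counts summed per name, limma 3.58.1 on log2(normalized count + 1), a 2-fold minimum, thinning to the shallowest library and each library left out. Chosen after seeing the data were the fit without AA replicate 3 and IGF1 replicate 2 and edgeR's newer method. Figures were drawn in Python 3.11.15 with matplotlib 3.10.9. Sequences were not analysed here.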

Additional observations from a re-analysis of the deposited data

How the results depend on the processing

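The 5 rises in IGF1 over CTR, the 2 in AA over CTR and the 4 lower values in AA than in IGF1 each stayed past the test in all 9 fits that left out 1 library. In these fits the number of the 9 genes past the test was 5 to 7 in IGF1 over CTR, 2 to 3 in AA over CTR and 4 to 5 in AA over IGF1. In AA over CTR it was 1 with counts summed per gene name and 0 with all libraries thinned to the shallowest in edgeR (2 of the 9 genes at an unadjusted p under 0.05). In IGF1 over CTR it was 8 without AA replicate 3 and IGF1 replicate 2 and 8 with edgeR's newer method, mthfd1b being the exception in both. The newer method also passed more contigs over all in IGF1 over CTR than the reported fit, as given below. With DESeq2, psat1 and shmt1 passed in IGF1 over CTR beside the 5 genes of the reported fit. In AA over IGF1 the number of the 9 genes was 2 with the 2-fold minimum. No source says that a number marks a shared culture. The residuals of 9 same-numbered pairs correlated between −0.0267 and 0.127, with 1 pair over 0.1. Those of pairs with different numbers correlated between −0.103 and 0.0581. All pairs of replicate 1 lay above that range, at 0.0640 (CTR and AA), 0.127 (CTR and IGF1) and 0.0608 (AA and IGF1). So did replicate 3 of CTR and IGF1, at 0.0991. The remaining same-numbered pairs lay between −0.0267 and 0.0359. The pairing was left out of the reported fit. Which libraries share a culture cannot be told from these correlations. Fn1a, chosen after its values were seen, was lowest in replicate 1 of each group (1352 in AA, 1461 in IGF1 and 1547 in CTR, against 2748 to 3297 in the other libraries). So was fn1b, while pdgfra and tek were highest in replicate 1 of each group, these also chosen after their values were seen. Of the 9 genes, psat1 was highest in replicate 1 of each group too, and phgdh and mthfd1l were lowest there. For phgdh in IGF1 the gap was small, at 790.1 against 821 and 821. With the replicate block 3, 7 and 5 of the 9 genes passed in AA over CTR, IGF1 over CTR and AA over IGF1. Totals over all contigs are not given here for the replicate block, for DESeq2 or for the fit without AA replicate 3 and IGF1 replicate 2. The larger counts in these fits are therefore not read as particular to the 9 genes.

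No direction of the 9 genes that had passed the test turned under any alternative. Of values that had not passed, in AA over CTR mthfd2 was 0.00963 with library-size scaling, mthfd1b −0.12 with limma, and psat1 −0.29 to 0.40 over the fits leaving out a library. In AA over IGF1 psph was −0.0377 without a filter, −0.0523 summed per name, −0.14 without AA replicate 3 and IGF1 replicate 2, −0.0345 with the newer method and −0.13 to 0.15 leaving out a library. There shmt1 was −0.0019 summed per name, mthfd1b 0.11 without AA replicate 3 and IGF1 replicate 2, and aldh1l2 −0.69 to 0.41 leaving out a library.

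Over all contigs, 4229 passed in AA over CTR, 2110 in IGF1 over CTR and 2985 in AA over IGF1. These counts were 2218, 962 and 1575 with the 2-fold minimum, 1519, 545 and 1012 summed per name, 2213, 1072 and 1802 after thinning, and 2304 to 4389, 1094 to 2893 and 1733 to 3139 leaving out a library. In IGF1 over CTR limma gave 1225 and the newer method 3837. The median log2 fold-change over the tested contigs was 0.12 in AA over CTR and 0.15 in AA over IGF1 with library-size scaling (−0.02 in both with TMM). With it, 2785 contigs were higher and 1550 lower in AA over CTR (1881 and 2348 with TMM), and 2457 higher and 1009 lower in AA over IGF1 (1381 and 1604 with TMM). Low counts limit shmt1, mthfd1b and aldh1l2, each under a mean of 100 raw counts.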
